A study of Homo sapiens with 6 samples.

Results

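The long noncoding RNAs described here are 10 transcripts studied in glioma, MALAT1, NEAT1, HOTAIR, HOTAIRM1, PVT1, MIAT, TUG1, GAS5, DANCR and CRNDE, measured in glioma cells with and without a knockout of ATRX, a chromatin remodeler that is often lost in gliomas. A lncRNA was given values only where a transcript cluster, the array's unit of probes summarised to a single value, carried its symbol and no other. Of the 10 lncRNAs, 5 had such a cluster, among 33616 genes on the array. MALAT1 had 2 clusters and HOTAIR, MIAT, TUG1 and CRNDE had 1 each. NEAT1, PVT1 and DANCR were each represented only by a cluster shared with a small RNA that lies within them, and GAS5 by a cluster that carried 10 symbols, so none of the 4 has a value here. HOTAIRM1 was not matched to a cluster.

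The ATRX KO group, 3 arrays, was infected with Cas9 and then with guide RNAs designed for ATRX, and the ATRX NC group, also 3 arrays, with Cas9 and then with guide RNAs that have no target. Both groups were selected with puromycin for 7 days before infection with the guide RNA virus for 24 h. By the sample labels both groups are LN229, a human glioblastoma line, whereas the design text and the paper give LN229R, its derivative resistant to temozolomide. Whether the cells were clones or pools, and whether the replicates were separate cultures, is nowhere stated, so p-values measure the spread between these arrays, which may be technical.

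Long noncoding RNAs are transcripts that are not known to be translated into a protein product. Some stay at their site of transcription or in nuclear bodies and act on splicing or chromatin, others carry small RNAs in their introns, and others bind proteins or microRNAs in the cytoplasm. Many of them are altered in gliomas, where MALAT1, HOTAIR and CRNDE have been linked to growth and invasion.

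The promoter windows of MALAT1, CRNDE and TUG1 are shown because MALAT1 has 2 annotated starts as well as 2 array clusters, and because CRNDE and TUG1 had lower values on all ATRX KO arrays than on any ATRX NC array. Each window runs 5′ to 3′ over 300 bases of the RefSeq annotation of GRCh38.p14, 250 before and 50 from the transcription start. Capitals mark 3 promoter motifs searched on both strands. They are the CCAAT box, the GC box GGGCGG and the TATA box TATAAA, and a match on the other strand appears as its reverse complement. The windows are chr11:65497488-65497787 (plus strand) and chr11:65498795-65499094 (plus strand) for the starts of MALAT1, chr16:54928837-54929136 (minus strand) for CRNDE and chr22:30969015-30969314 (plus strand) for TUG1.
MALAT1 upstream start: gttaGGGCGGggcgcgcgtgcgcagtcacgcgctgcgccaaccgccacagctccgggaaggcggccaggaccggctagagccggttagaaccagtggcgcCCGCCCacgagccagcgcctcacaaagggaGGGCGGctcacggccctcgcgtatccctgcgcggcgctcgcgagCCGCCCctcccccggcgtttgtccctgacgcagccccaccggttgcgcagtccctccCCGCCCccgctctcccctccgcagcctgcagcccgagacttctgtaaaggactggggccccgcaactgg
MALAT1 downstream start: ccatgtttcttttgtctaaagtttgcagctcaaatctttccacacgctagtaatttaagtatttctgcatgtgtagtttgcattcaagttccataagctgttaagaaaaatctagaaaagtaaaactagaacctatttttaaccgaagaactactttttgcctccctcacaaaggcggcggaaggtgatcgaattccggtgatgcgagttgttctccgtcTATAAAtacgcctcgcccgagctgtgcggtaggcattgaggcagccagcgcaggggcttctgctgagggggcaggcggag
CRNDE: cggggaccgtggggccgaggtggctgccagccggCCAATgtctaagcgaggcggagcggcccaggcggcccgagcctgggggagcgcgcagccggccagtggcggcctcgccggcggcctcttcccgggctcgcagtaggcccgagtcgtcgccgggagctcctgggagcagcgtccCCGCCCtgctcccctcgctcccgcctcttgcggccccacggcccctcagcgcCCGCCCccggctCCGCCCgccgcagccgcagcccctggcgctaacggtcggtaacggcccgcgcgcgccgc
TUG1: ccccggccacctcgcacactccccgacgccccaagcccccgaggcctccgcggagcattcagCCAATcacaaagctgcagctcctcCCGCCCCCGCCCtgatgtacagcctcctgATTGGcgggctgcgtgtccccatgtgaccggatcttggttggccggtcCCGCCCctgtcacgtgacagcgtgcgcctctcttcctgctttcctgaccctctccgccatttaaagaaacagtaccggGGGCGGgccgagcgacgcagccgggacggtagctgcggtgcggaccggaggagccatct

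The windows of the upstream MALAT1 start, CRNDE and TUG1 were rich in CpG dinucleotides, with 37, 44 and 28 in each, and the downstream MALAT1 start had 14, the same as the median of 14.0 over all 35116 annotated windows. GGGCGG was found 5 times at the upstream MALAT1 start, 3 times at CRNDE and 4 times at TUG1, and 45.0% of all windows hold it. CCAAT was found 1 time at CRNDE and 2 times at TUG1, and 34.6% of all windows hold it. TATAAA was found only at the downstream MALAT1 start, where it begins at position -30 from the start, and 11.5% of all windows hold it. No motif overlapped another. The MIAT window had 3 CpG dinucleotides and no match to these letters, and no window was at hand for HOTAIR. A match is a description of the sequence and does not show that a factor binds there.

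ATRX itself, the check of the labels, had 8.47, 8.67 and 8.75 on the ATRX KO arrays, against 10.49, 10.22 and 10.14 on the ATRX NC arrays (log2 intensity, the unit of all levels below). The difference of -1.65 (SE 0.16, limma adjusted p = 0.000561, n = 3 each) left 31.8% of the ATRX NC intensity. Whole arrays correlated at 0.990 to 0.992 within a group and at 0.980 to 0.981 between groups. Of all genes, 1947 rose and 1251 fell at an adjusted p under 0.05, so that 60.9% of the calls were rises, against 48.7% after a further quantile normalization, 47.7% after median centring and 49.2% after cyclic loess. The glioma line keeps VIM, which lay between 16.90 and 17.15 on all 6 arrays, whereas 2 of its glial markers, GFAP, at 5.00 to 5.67 in ATRX KO and 5.16 to 5.35 in ATRX NC, and OLIG2, at 4.56 to 5.18 in ATRX KO and 4.68 to 5.09 in ATRX NC, were below the median gene. Of 8 glioma line markers, EGFR rose, and S100B and NES fell. S100B, also a glial marker, lay well above the median gene, with 11.55, 11.56 and 11.89 in ATRX KO and 14.75, 14.56 and 14.47 in ATRX NC (-2.93, adjusted p = 3.36e-05). Of 10 fibroblast markers, 6 rose and none fell (5 passed the methods' t-test), with POSTN, a matrix protein of stromal cells, higher by 7.88. The 4 that did not pass were COL1A2 at 0.68, THY1 at 0.48, ACTA2 at -0.09 and COL1A1 at -0.31. The mean level of the list was 9.93 to 10.23 on the ATRX KO arrays, against 7.52 to 7.77 on the ATRX NC arrays. Of 6 immune and endothelial markers, PECAM1 alone passed the test (1.52, adjusted p = 0.0156), a call lost on removal of ATRX KO replicate 1 (0.0550) or 3 (0.0634) and under the methods' t-test (0.119), and the list averaged 6.21 to 6.43 in ATRX KO and 5.82 to 5.98 in ATRX NC. The part of these markers in the lncRNA values was not tested, and in bulk RNA fewer cells of a type and less RNA per cell cannot be told apart.

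The comparison of ATRX KO with ATRX NC asks whether the loss of ATRX goes with other levels of these lncRNAs. None of the 5 passed the test at an adjusted p under 0.05, whereas 9.51% of all genes (5.79% higher and 3.72% lower in ATRX KO) and 4.62% of the 3051 genes annotated as lncRNA did. The median level was 5.06 over lncRNA genes and 6.10 over all genes, and the part of level in these shares was not tested. At an unadjusted p under 0.05, HOTAIR was higher and CRNDE lower, 2 of 5, by limma and also by the methods' t-test, which after adjustment called 0, and 24.3% of all genes reach that level in limma. On 3 of the 5, HOTAIR, CRNDE and TUG1, the groups did not overlap, which holds for 30.2% of all genes and for 17.7% of lncRNA genes. Each 95% interval of the 5 genes lay within a 2-fold change in either direction.

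**Figure D1:**
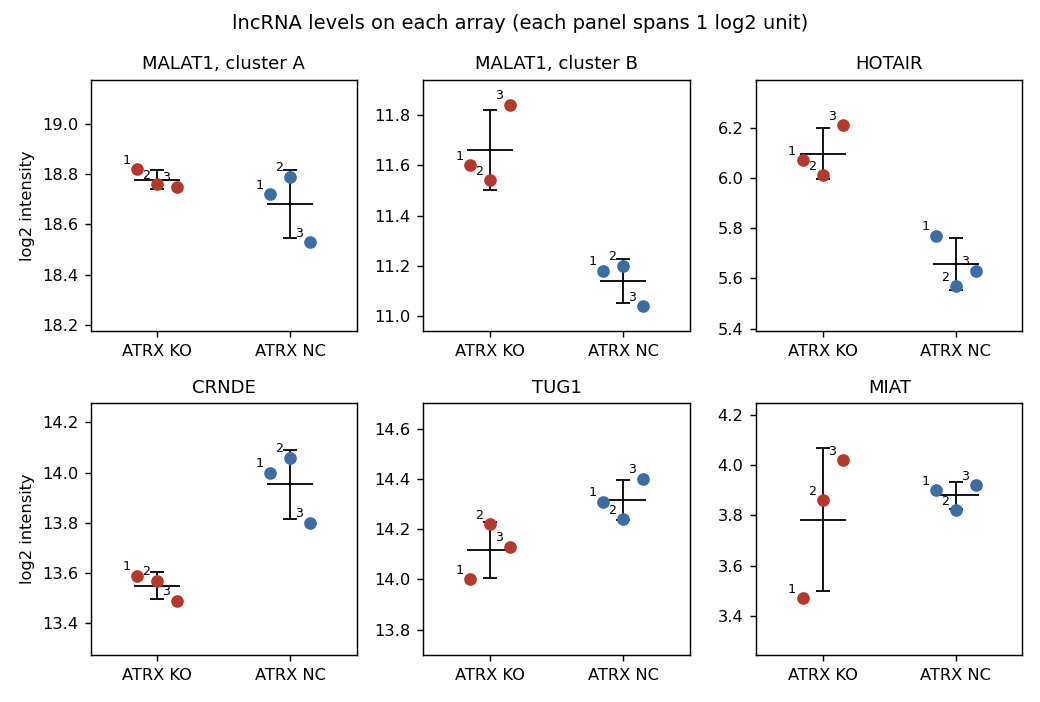
Log2 intensity of each lncRNA cluster on each array, ATRX KO (red) left of ATRX NC (blue), with replicate numbers beside the points, the group mean as the long line and 1 SD as the bar, each panel spanning 1 log2 unit. The ATRX KO arrays lie above all ATRX NC arrays for MALAT1 cluster B and HOTAIR, and below them for CRNDE and TUG1.

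HOTAIR is transcribed from the HOXC cluster of homeobox genes and is known for binding the Polycomb complex, which methylates histone H3. HOTAIR had 6.07, 6.01 and 6.21 in ATRX KO cells, against 5.77, 5.57 and 5.63 in ATRX NC cells. All ATRX KO arrays were higher than all ATRX NC arrays, with a gap of 0.24 between the groups. The means were 6.10 ± 0.10 in ATRX KO and 5.66 ± 0.10 in ATRX NC (SD, n = 3 each). The difference was 0.44 (SE 0.15, 95% interval 0.10 to 0.77), a fold of 1.36 (1.08 to 1.71), with a limma p of 0.0161 and an adjusted p of 0.105. This limma p is unadjusted, and limma draws each SE toward the spread shared by all genes. The difference did not pass once all genes were counted. It stayed above 0 under each of its 17 alternatives, from 0.34 to 0.50, and none of them brought it past the threshold (adjusted p from 0.0633 to 0.669). HOTAIR lay below the median gene level, and no detection call accompanies the values.

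The homeobox genes on either side of HOTAIR specify position along the body axis. HOXC12 differed by 0.34 (adjusted p = 0.273), HOXC13 by 0.16 (0.560) and HOXC10 by 0.21 (0.401). HOXC11 was at -0.09 (adjusted p = 0.821). None of the 4 passed the limma test. Among the Polycomb and demethylase partners described for HOTAIR, EZH2, the H3K27 methyltransferase, differed by 0.23 (adjusted p = 0.386), SUZ12, its structural partner, by -0.19 (0.585), and KDM1A, a histone demethylase, by -0.10 (0.874), so that none passed. The sign for EZH2 depended on the cluster used, as it turned to -0.18 (limma adjusted p = 0.507) with its clusters averaged.

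CRNDE is transcribed divergently from IRX5, a homeobox gene, and is raised in gliomas. CRNDE had 13.59, 13.57 and 13.49 in ATRX KO cells, against 14.00, 14.06 and 13.80 in ATRX NC cells. All ATRX KO arrays were lower than all ATRX NC arrays, with a gap of 0.20 between the groups, and the ATRX KO arrays lay closer to each other than the ATRX NC arrays. The means were 13.55 ± 0.05 in ATRX KO and 13.95 ± 0.14 in ATRX NC (SD, n = 3 each). The difference was -0.40 (SE 0.15, 95% interval -0.73 to -0.06), or 75.8% of the ATRX NC intensity, with a limma p of 0.0252 and an adjusted p of 0.138. CRNDE was the only 1 of the 5 with a call under any alternative. It passed where only genes above the median level were tested (adjusted p = 0.0415), a filter that left out HOTAIR and MIAT. It also passed where the variance was fitted with a trend and robustly (adjusted p = 0.0117). Both settings called a larger share of genes than limma without filter or trend (1947 of 33616 rose and 1251 fell). Above the median level 3051 of 16808 rose and 1909 fell. With the trend and robust fit 3207 of 33616 rose and 1934 fell. Over all 18 alternatives the adjusted p of CRNDE ran from 0.0117 to 0.798 at differences of -0.50 to -0.35.

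The genes beside CRNDE encode Iroquois homeobox factors. IRX5 had 5.55, 5.21 and 5.87 in ATRX KO cells, against 5.47, 5.37 and 5.49 in ATRX NC cells, a difference of 0.10 (SE 0.19, adjusted p = 0.808). The IRX5 groups overlapped. IRX3 was at 0.14 (adjusted p = 0.749) and IRX6 at -0.25 (0.666), and none of the 3 passed the limma test.

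TUG1 is a broadly expressed transcript known from the developing retina and linked to Polycomb and to self-renewal of glioma cells, and RefSeq now lists it as protein-coding. TUG1 had 14.00, 14.22 and 14.13 in ATRX KO cells, against 14.31, 14.24 and 14.40 in ATRX NC cells. All ATRX KO arrays were lower, but ATRX KO replicate 2 and ATRX NC replicate 2 were only 0.02 apart. The means were 14.12 ± 0.11 in ATRX KO and 14.32 ± 0.08 in ATRX NC (SD, n = 3 each). The difference was -0.20 (SE 0.14, 95% interval -0.54 to 0.13), a fold of 0.869, with a limma adjusted p of 0.447. The interval holds both no difference and a fall to 69.0% of ATRX NC at its lower end. MORC2, the neighbouring gene on the other strand and a chromatin ATPase, was at 0.05 (adjusted p = 0.903), and turned to between -0.05 and -0.04 after quantile normalization, median centring and cyclic loess.

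MALAT1 is a nuclear lncRNA of nuclear speckles, the bodies that store splicing factors, and its 3′ end is processed into a small cytoplasmic RNA. Its brighter cluster (TC1100008024.hg.1, cluster A) had 18.82, 18.76 and 18.75 in ATRX KO cells, against 18.72, 18.79 and 18.53 in ATRX NC cells. The groups overlapped, and ATRX NC replicate 3 was the low array. The means were 18.78 ± 0.04 in ATRX KO and 18.68 ± 0.13 in ATRX NC (SD, n = 3 each). The difference was 0.10 (SE 0.15, 95% interval -0.23 to 0.44), a fold of 1.07 (0.853 to 1.35), with a limma adjusted p of 0.726, and it turned to -0.03 after cyclic loess. The maximum of every array was 19.93, shared by 3 to 12 clusters, so cluster A was read about 1 log2 unit under the ceiling of the scale, and the part of the ceiling in its small difference was not tested.

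The other cluster of MALAT1 (TC1100011227.hg.1, cluster B) carries the MALAT1 symbol without an Entrez number, and the sources used here do not give its position or strand. Cluster B had 11.60, 11.54 and 11.84 in ATRX KO cells, against 11.18, 11.20 and 11.04 in ATRX NC cells. All ATRX KO arrays were higher, with a gap of 0.34 between the groups. Of the 36176 clusters with 1 symbol, 18.3% lay higher without overlap, whatever the gap. The difference was 0.52 (SE 0.15, 95% interval 0.17 to 0.88), a fold of 1.44 (1.13 to 1.84), with a limma p of 0.00884 and an adjusted p of 0.0762 over 36176 clusters, of which 8.83% passed. Cluster B minus cluster A was -7.22, -7.22 and -6.91 in ATRX KO and -7.54, -7.58 and -7.49 in ATRX NC, and all 3 ATRX KO arrays lay above the ATRX NC arrays. The mean of this value was 0.42 higher in ATRX KO, with an exact two-sided permutation p of 0.100, which is the smallest that 3 against 3 arrays allow. It is also the only p possible once the groups lie apart, and the comparison was chosen after the values were seen. With the clusters averaged, MALAT1 differed by 0.31 (adjusted p = 0.232).

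MIAT, first described in a study of myocardial infarction, is a nuclear lncRNA that binds splicing factors. MIAT had 3.47, 3.86 and 4.02 in ATRX KO cells, against 3.90, 3.82 and 3.92 in ATRX NC cells. The groups overlapped, and ATRX KO replicate 1 was the low array. The means were 3.78 ± 0.28 in ATRX KO and 3.88 ± 0.05 in ATRX NC (SD, n = 3 each). The difference was -0.10 (SE 0.18, 95% interval -0.50 to 0.31, limma adjusted p = 0.794), and it turned to 0.06 without ATRX KO replicate 1. MIAT was below the 25th percentile of gene levels, and no detection call says whether it was above background.

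**Figure D2:**
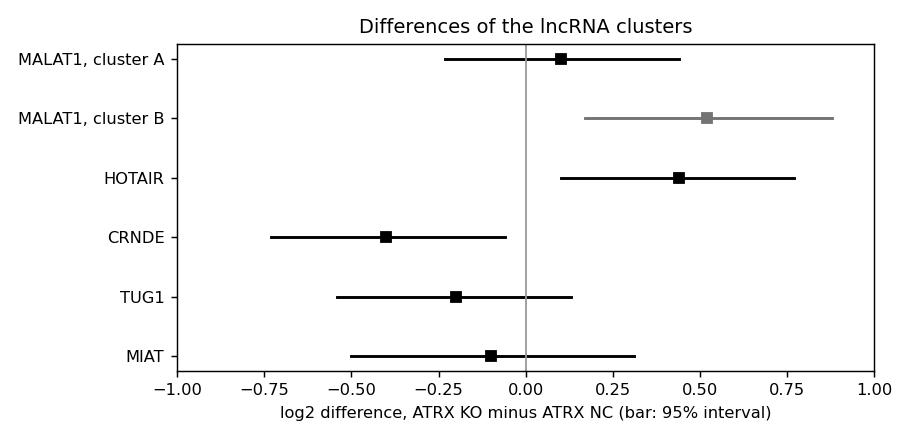
Log2 difference of each lncRNA cluster, ATRX KO minus ATRX NC, with its 95% interval from limma as the bar, and MALAT1 cluster B, which was not used for the gene, in grey. The intervals of HOTAIR, CRNDE and MALAT1 cluster B leave out 0, and those of MALAT1 cluster A, TUG1 and MIAT include it.

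The differences of the 5 lncRNAs, from -0.40 to 0.44 with a median of -0.10, lay between the 5th and 95th percentiles of lncRNA genes. The median difference was 0.00 over lncRNA genes, with -0.60 and 0.56 as the 5th and 95th percentiles, and 0.07 over all genes, with -0.61 and 0.77. Of the lncRNA genes, 2405 (78.8%) lay between CRNDE and HOTAIR. Among lncRNA genes 61 rose and 80 fell.

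**Figure D3:**
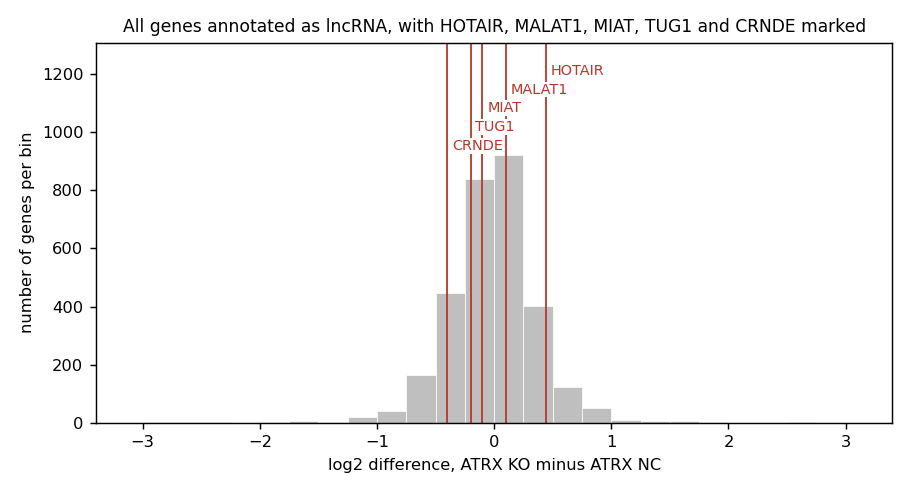
Number of genes annotated as lncRNA in bins of 0.25 of the log2 difference, ATRX KO minus ATRX NC, with the differences of the 5 lncRNAs as red lines (TUG1, listed as protein-coding, is not in the bars) and 2 genes outside the plotted range. The outermost lines are CRNDE at -0.40 and HOTAIR at 0.44, and 78.8% of lncRNA genes lie between them.

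**Figure D4:**
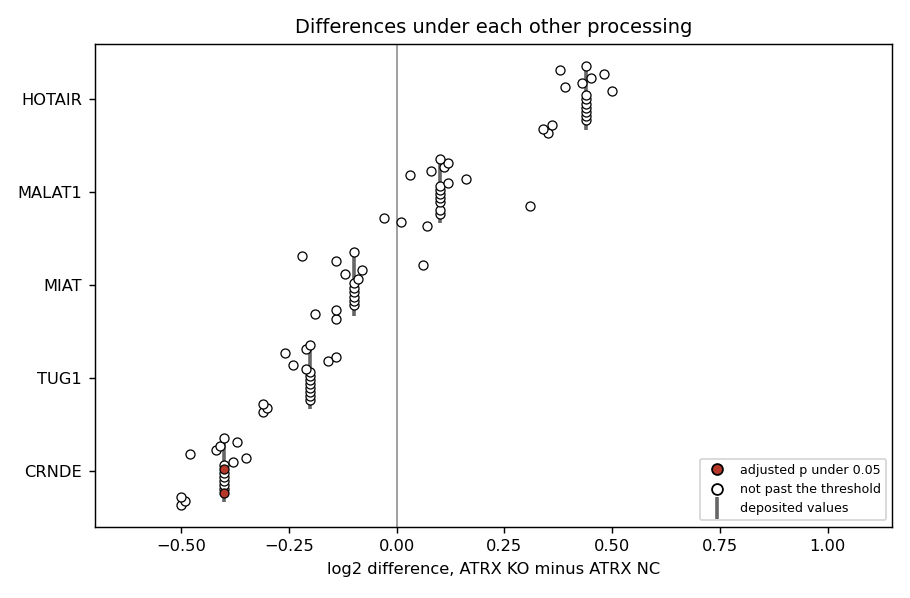
Log2 difference of each lncRNA, ATRX KO minus ATRX NC, under each alternative processing (points, filled in red where the adjusted p was under 0.05) and with the deposited values (grey line). The 2 red points both belong to CRNDE at -0.40, and of the 5 only MALAT1 and MIAT have points on both sides of 0.

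As a description, the protein-coding genes whose 6 values followed HOTAIR most closely, after each gene was centred on its own mean, were TMEM248 (root mean square difference 0.0202), LHX6 (0.0350) and FBXO8 (0.0352). For CRNDE they were ELK3, an ETS transcription factor (0.0381), RNF13, a ubiquitin ligase (0.0436), and VCAN, a matrix proteoglycan (0.0451). VCAN had 15.14, 15.11 and 15.06 in ATRX KO cells, against 15.66, 15.67 and 15.41 in ATRX NC cells, and did not pass the limma test (adjusted p = 0.0851). These genes were picked from 17575 protein-coding genes for their likeness over the 6 arrays, so the shared pattern follows from the choice.

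The members without a cluster of their own host small RNAs or lie beside genes that were measured. GAS5 carries box C/D small nucleolar RNAs, which guide methylation of ribosomal RNA, in its introns, DANCR carries SNORA26, and PVT1 carries microRNAs. Of 18 small RNAs hosted by the lncRNAs, 12 were measured and 0 passed the limma test or, after adjustment, the methods' t-test, with a median difference of -0.04. The count depended on the processing, as 1 passed after each of the 3 further normalizations, 2 with the variance trend and robust fit, and 3 among genes above the median level. At an unadjusted p under 0.05 there were 3 of 12, against 24.3% of all genes, and these 3 are named here after their values were seen. SNORD81 of GAS5 had 9.09, 8.54 and 9.05 in ATRX KO cells, against 8.33, 8.40 and 7.95 in ATRX NC cells (0.66, SE 0.21, adjusted p = 0.0860), and passed under 3 of 17 alternatives (adjusted p from 0.0203 to 0.0303). SNORD78 of GAS5 differed by 0.49 (SE 0.18, adjusted p = 0.137), and passed only among genes above the median level (0.0493). MIR1206 of PVT1 had 8.12, 6.98 and 7.42 in ATRX KO cells, against 8.70, 8.20 and 8.60 in ATRX NC cells, which is 50.2% of the ATRX NC intensity (SE 0.29 on the log2 scale, adjusted p = 0.0701). MIR1206 passed under 8 of 17 alternatives, among them the 3 further normalizations (adjusted p from 0.0460 to 0.0487) and the removal of ATRX KO replicate 1 (0.0220). The groups did not overlap for these 3, as for 30.2% of all genes, but MIR1206 had a range of 1.14 over the ATRX KO arrays, and its highest ATRX KO array was 0.08 below its lowest ATRX NC array. Of the other measured small RNAs of GAS5, SNORD75 was at -0.37, SNORD74 at -0.36, SNORD44 at 0.31, SNORD77 at 0.05 and SNORD79 at 0.03. The array's probes may also read the host transcript of a small RNA, and this was not tested.

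Other hosts of small nucleolar RNAs were mostly not on clusters of their own, as 3 of 19 were measured. ZFAS1, a host of box C/D RNAs, had 5.60, 5.45 and 5.30 in ATRX KO cells, against 6.49, 6.74 and 6.36 in ATRX NC cells. It fell by 1.08 (SE 0.17, limma adjusted p = 0.00554), to 47.3% of ATRX NC, and it passed under each of its 17 alternatives. The mean of ZFAS1 over all arrays lay below the median gene level, and no detection call accompanies its values. SNHG19 fell by 0.77 (SE 0.18, adjusted p = 0.0353), but the call was lost under 10 of 18 alternatives, among them the removal of any 1 of the 6 arrays (adjusted p from 0.0503 to 0.104). EPB41L4A-AS1 was at -0.54 (SE 0.14, adjusted p = 0.0532), and passed under 7 of 18 alternatives, among them the 3 further normalizations (adjusted p from 0.0290 to 0.0311) and the methods' t-test (0.0375). All 3 had lower values on the ATRX KO arrays than on any ATRX NC array, where 30.2% of all genes and 17.7% of lncRNA genes do not overlap, and the list's median was -0.77.

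Of 21 other lncRNAs studied in glioma, 18 were measured, 1 rose and 1 fell, with a median difference of 0.09. The limma test was passed by 9.51% of all genes and 4.62% of lncRNA genes. KCNQ1OT1, which silences an imprinted domain and is transcribed antisense to KCNQ1, had 12.45, 12.42 and 12.16 in ATRX KO cells, against 14.28, 14.25 and 14.27 in ATRX NC cells. All ATRX KO arrays were far below the ATRX NC arrays, which were within 0.03 of each other. KCNQ1OT1 fell by 1.92 (SE 0.15, limma adjusted p = 0.000175), to 26.4% of ATRX NC, and passed under each of its 18 alternatives. SOX2-OT, which overlaps the stem cell factor SOX2, had 11.69, 11.69 and 11.35 in ATRX KO cells, against 10.69, 10.89 and 10.86 in ATRX NC cells. It rose by 0.76 (SE 0.16, adjusted p = 0.0226), a call that was lost under 9 of 18 alternatives, among them the removal of any 1 array other than ATRX KO replicate 3 (adjusted p from 0.0552 to 0.0862). SOX2 itself was at 0.44 (SE 0.16, adjusted p = 0.140), and passed above the median level (0.0469) and with the variance trend and robust fit (0.0418). NORAD, which binds PUMILIO proteins, was at 0.45 (adjusted p = 0.103), and HOXA-AS2 at -0.59 (0.119). Among genes above the median level NORAD (0.0278) and HOXA-AS2 (0.0435) passed, and NORAD also with the variance trend and robust fit (0.00399). The sources used here do not give the strand a cluster reads, so signal of an overlapping gene cannot be told apart for KCNQ1OT1 and SOX2-OT. The same limit holds for any other lncRNA named in this report, ZFAS1 and HAGLR included, where another gene overlaps it.

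MALAT1 and NEAT1 are known for the nuclear bodies they belong to, nuclear speckles and paraspeckles. Over all genes, 9.51% passed the limma test. Of 14 paraspeckle proteins 13 were measured, none rose and 1 fell, with a median difference of -0.26. PSPC1, a core paraspeckle protein, had 12.42, 12.34 and 12.22 in ATRX KO cells, against 13.00, 12.99 and 13.10 in ATRX NC cells (-0.70, SE 0.14, limma adjusted p = 0.0190). The call on PSPC1 was lost on removal of any 1 of the 6 arrays, with adjusted p from 0.0501 to 0.0750. CPSF6 was at -0.41 (adjusted p = 0.159), DAZAP1 at -0.39 (0.212) and NUDT21 at -0.33 (0.231), of which CPSF6 (0.0209) and NUDT21 (0.0311) passed with the variance trend and robust fit. NONO and SFPQ, which bind NEAT1 and are needed for paraspeckles, were at 0.26 (adjusted p = 0.286) and 0.09 (0.743), and both passed the methods' t-test after adjustment (0.0452 and 0.0363). In all, 3 paraspeckle proteins passed the methods' t-test and 4 the fit with the variance trend, which also called NONO (0.0266). Of 8 nuclear speckle proteins 6 were measured, none rose and 1 fell, with a median of -0.13. SRSF7, a splicing factor, had 12.58, 12.56 and 12.59 in ATRX KO cells, against 13.15, 13.44 and 13.44 in ATRX NC cells (-0.76, SE 0.15, adjusted p = 0.0167), a call lost on removal of any 1 array other than ATRX NC replicate 1 (adjusted p from 0.0536 to 0.0604). SRSF1 was at -0.39 (adjusted p = 0.137), SRSF5 at -0.35 (0.186) and SRSF3 at 0.16 (0.550). With the variance trend and robust fit SRSF1 (0.00280) and SRSF5 (0.00977) passed, and SRSF1 also among genes above the median level (0.0401).

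Of 9 proteins described as partners of the lncRNAs, 8 were measured, 1 rose and none fell, with a median of 0.11. Over all genes, 9.51% passed the limma test. NR3C1, the glucocorticoid receptor that GAS5 binds as a decoy, had 12.61, 12.69 and 12.58 in ATRX KO cells, against 11.34, 11.15 and 11.29 in ATRX NC cells. All ATRX KO arrays lay more than 1 log2 unit above the ATRX NC arrays. NR3C1 rose by 1.37 (SE 0.14, limma adjusted p = 0.000736), a fold of 2.58, and passed under each of its 17 alternatives. MYC, whose protein PVT1 is reported to stabilise and whose gene lies beside it, was at 0.00 (SE 0.19, adjusted p = 0.999).

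Of 29 genomic neighbours 24 were measured, 1 rose and 2 fell, with a median of 0.07. Over all genes, 9.51% passed the limma test. HOXA2, the homeobox gene next to HOTAIRM1, had 6.62, 6.99 and 7.12 in ATRX KO cells, against 7.98, 8.32 and 7.99 in ATRX NC cells. It fell by 1.19 (SE 0.19, limma adjusted p = 0.00603), to 43.9% of ATRX NC, and lost its call only under the methods' t-test after adjustment (0.0510). CENPL, a centromere protein gene near GAS5, rose by 0.93 (SE 0.20, adjusted p = 0.0239), and lost its call on removal of any 1 array other than ATRX NC replicate 3 (adjusted p from 0.0548 to 0.0832). USP46, a deubiquitinase gene beside DANCR, fell by 0.56 (SE 0.14, adjusted p = 0.0425), and lost its call on removal of any 1 of the 6 arrays (adjusted p from 0.0846 to 0.118). These 3 genes lie near lncRNAs that have no value here, and of the measured neighbours of MALAT1, HOTAIR, MIAT, TUG1 and CRNDE none passed the limma test, for example LTBP3 beside MALAT1 at 0.18 (adjusted p = 0.579).

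**Figure D5:**
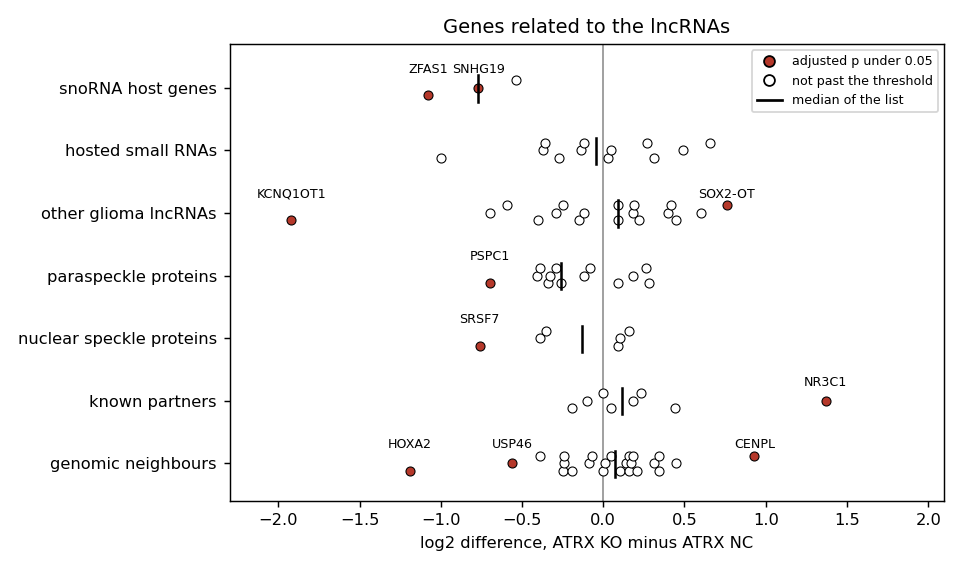
Log2 difference, ATRX KO minus ATRX NC, of each measured gene in 7 lists of genes related to the lncRNAs, in red and named where the limma adjusted p was under 0.05, with the median of each list as a black line. KCNQ1OT1 at -1.92 and NR3C1 at 1.37 lie far from the medians of their lists, and no hosted small RNA passed with the deposited values, although MIR1206 did under 8 of 17 alternatives.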

How the data were processed

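Log2 intensities of 135748 transcript clusters on 6 arrays, deposited by the authors, were used. By the methods, the authors applied limma's quantile normalization to the raw data. The sources used here do not give the background correction, the summary of probes, the software versions or the build of the clusters. The methods name Agilent arrays, whereas cluster names and labelling kit are those of Affymetrix arrays. Array medians were 5.28 to 5.31 over all clusters and 6.03 to 6.17 over the genes tested. Arrays have no read depth, so their number limits the precision.

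Of the clusters, 36176 carried 1 symbol, 1119 several and 98453 none. Entrez numbers of 25516 of the clusters with 1 symbol matched RefSeq GRCh38.p14, whose symbols were then used. The others kept the symbol of the array annotation. Their class, such as lncRNA, came from a RefSeq gene of the same symbol where there was one. Of several clusters of a gene, that with the highest mean over the 6 arrays was used, and all 33616 genes were tested with no filter. Samples were grouped by genotype. ATRX KO was compared with ATRX NC by lmFit and eBayes of limma 3.58.1 (R 4.3.3, statmod 1.5.0 for robust fits), with Benjamini-Hochberg adjustment over all genes and a threshold of 0.05. The fit was tested on simulated data. The 10 lncRNAs and the lists were chosen with earlier results of these data known. Lists were described by counts and medians.

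The rule for named genes took all 10 lncRNAs, members past the test among hosted small RNAs, neighbours and partners, up to 4 of each other list with the smallest p, the glial markers at low level, and the 3 protein-coding genes most like each of the 2 lncRNAs with the smallest p. Genes named beyond it (the HOXC and IRX neighbours, LTBP3, MORC2, MYC, EZH2, SUZ12, KDM1A, NONO, SFPQ, VIM and the small RNAs of GAS5 and PVT1) were chosen after their values were seen. So were COL1A1, COL1A2, THY1 and ACTA2 of the fibroblast markers. The alternatives, under which calls were both gained and lost, were 3 further normalizations, 2 filters on dim genes, the mean over clusters, all clusters, lncRNA genes alone, a robust fit with a variance trend, the replicate number as a block, the methods' t-test, a threshold of 1.2-fold and the removal of each array.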

Additional observations from a re-analysis of the deposited data

How the results depend on the processing

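Under all their alternatives HOTAIR stayed higher and TUG1 and CRNDE lower in ATRX KO, at 0.34 to 0.50, -0.31 to -0.14 and -0.50 to -0.35. The number of the 5 lncRNAs past the test was 0, and 1 (CRNDE at -0.40) with genes above the median level alone and with the variance trend and robust fit. HOTAIR and MIAT were left out by that filter for their level. MALAT1 turned to -0.03 after cyclic loess, and MIAT ranged from -0.22 to 0.06 on removal of 1 array. The 3198 of 33616 genes past the test became 4960 of 16808 above the median level. With lncRNA genes and TUG1 alone 51 of 3052 passed, against 141 of 3051 lncRNA genes in the fit to all genes. Over all 33616 genes the number was 5141 with the trend and robust fit, 1995 with the methods' t-test and 1477 against a fold of 1.2. On removal of 1 array it was 1776 to 2190. With the replicate number as a block 2059 genes and 0 of the 5 lncRNAs passed. Deviations of same-numbered arrays correlated at -0.0389 to -0.00425, so no pairing by replicate number was visible in the values. How the replicates were made is not stated. The replicate block is included in every count of alternatives given for a gene. It took SNHG19, SOX2-OT, PSPC1, SRSF7 and USP46 over the threshold and brought MIR1206 under it (0.0359). EZH2 turned to -0.18 with clusters averaged. MORC2 turned to -0.05 after quantile normalization, -0.05 after median centring and -0.04 after cyclic loess. On removal of 1 array MORC2 ranged from -0.03 to 0.19, HOXC11 from -0.19 to 0.06, IRX3 from -0.07 to 0.27, IRX5 from -0.07 to 0.26 and MYC from -0.14 to 0.15. Beyond the construction of each alternative the cause was not tested. Named genes that had not passed but did under at least 1 alternative were CRNDE, MIR1206, SNORD81, SNORD78, EPB41L4A-AS1, NORAD, HOXA-AS2, SOX2, CPSF6, NUDT21, SRSF1, SRSF5, NONO and SFPQ. With 3 arrays a group, differences of the size seen for TUG1 and MALAT1 were within the intervals of no difference. Without a detection call, how far background compresses the differences of HOTAIR and MIAT is unknown.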

Other observations

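Among the other lncRNA genes that passed the test, 4 with large differences are described here and were chosen after their values were seen. LUCAT1, a lncRNA first described in lung cancer, had 8.48, 8.47 and 8.23 in ATRX KO cells, against 5.62, 5.39 and 6.09 in ATRX NC cells, and rose by 2.69 (SE 0.20, limma adjusted p = 0.000159). OLMALINC, an oligodendrocyte maturation-associated lncRNA, had 9.12, 8.98 and 9.07 in ATRX KO cells, against 12.03, 12.01 and 11.83 in ATRX NC cells, and fell by 2.90 (SE 0.14, adjusted p = 1.78e-05). BANCR, described in melanoma, had 7.74, 7.75 and 8.30 in ATRX KO cells, against 10.46, 10.91 and 10.33 in ATRX NC cells, and fell by 2.64 (SE 0.22, adjusted p = 0.000252). HAGLR, a lncRNA of the HOXD cluster, had 9.64, 9.76 and 9.53 in ATRX KO cells, against 11.21, 11.54 and 11.18 in ATRX NC cells, and fell by 1.67 (SE 0.16, adjusted p = 0.000527). In each of the 4 the groups lay apart by more than 1 log2 unit, and each passed under all of its 18 alternatives.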
